A study of Homo sapiens with 6 samples.

Results

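The stem and progenitor transcription factors examined here are 10 genes, ERG, FLI1, LMO2, TAL1, LYL1, GATA2, HHEX, TCF3, TCF12 and LDB1, taken by their symbols in GENCODE release 29. They are 10 of the 32364 Ensembl genes in the deposited table, and all 10 passed the minimum level for testing. The table holds 6 mRNA sequencing libraries of Kasumi-1, an acute myeloid leukemia cell line with the t(8;21) translocation that fuses RUNX1 (AML1) to RUNX1T1 (ETO). Of these libraries, 3 are control cells, which by the study's methods received the same amount of the solvent DMSO, and 3 are cells incubated with 0.5 µM I13, a histone deacetylase inhibitor, with 48 h of incubation in both groups. The cells are a single line with no normal counterpart, and the labels do not say whether the 3 replicates of a group were separate cultures. The study's caption for its sequencing figure speaks of 3 independent experiments, without matching them to these libraries. The p-values set the difference between the groups against the spread between these libraries, which may be technical.

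In blood stem and progenitor cells these factors bind together at enhancers. TAL1 and LYL1 are basic helix-loop-helix (bHLH) proteins that pair with an E protein, TCF3 (E2A) or TCF12 (HEB), to bind E-box DNA, and LMO2 and LDB1 join this pair to a GATA factor such as GATA2. ERG and FLI1 are ETS factors that bind GGAA sites, and HHEX is a homeobox factor of early blood cells. In t(8;21) leukemia the AML1-ETO fusion protein is known to form a stable complex that holds E proteins, LYL1, LMO2 and LDB1, and to share many of its genomic sites with ERG and FLI1.

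LYL1 and TAL1 are relatives in the bHLH family and the highest and the lowest of the 10 factors in these libraries. Their promoters are shown for that reason, from 250 bases before to 50 bases after the RefSeq start, on GRCh38.p14. RefSeq windows were found for 8 of the 10 factors, all but FLI1 and LMO2. Capitals mark each GATA, the core of a GATA factor's site, on either strand (GATA or TATC). The LYL1 window lies on the minus strand at chr19:13102809-13103108, and the TAL1 window, the more upstream of 2, lies on the minus strand at chr1:47232286-47232585.
LYL1: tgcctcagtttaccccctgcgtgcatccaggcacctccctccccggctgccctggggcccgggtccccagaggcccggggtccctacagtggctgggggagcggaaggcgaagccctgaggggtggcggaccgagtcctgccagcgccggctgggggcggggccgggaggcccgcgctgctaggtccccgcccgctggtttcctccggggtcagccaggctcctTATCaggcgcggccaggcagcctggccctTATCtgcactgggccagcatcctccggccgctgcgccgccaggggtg
TAL1: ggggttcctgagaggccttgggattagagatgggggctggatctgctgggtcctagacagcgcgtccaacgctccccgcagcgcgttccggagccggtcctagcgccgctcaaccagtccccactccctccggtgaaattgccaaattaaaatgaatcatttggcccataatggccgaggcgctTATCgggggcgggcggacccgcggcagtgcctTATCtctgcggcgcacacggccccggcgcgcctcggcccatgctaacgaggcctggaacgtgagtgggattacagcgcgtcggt
Each of these windows holds 2 of the motifs, and the other TAL1 window (chr1:47231666-47231965) holds 0. Of 35116 promoter windows of this length, 49.7% hold at least 1 and 22.8% hold 2 or more. The windows say nothing of which factor binds there in Kasumi-1 cells.

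The depth recovered from the deposited values was between 15281052 and 17221345 fragments per library. Control replicate 3 and I13 replicate 2 stood apart from the other 4 libraries. The first principal component over 4133 genes at a mean of 10 or more FPKM (fragments per kilobase of exon, scaled to the library's mapped fragments) set this pair apart and carried 43.3% of the variance, while the second separated I13 from control and carried 20.5%. The sources used here name no batch. For each factor, the change within this pair and within the other 4 libraries is given below. The labelled cell type was checked with markers. The t(8;21) myeloblast markers MPO, KIT, CD34, CD33, ELANE, RUNX1T1 and POU4F1 each had a mean of at least 1 FPKM.

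FPKM is per exon length, so the levels of the factors can be set side by side. The length counts all annotated exons of a gene, so a factor present mainly as a shorter transcript reads too low. Which transcripts these cells hold was not tested. Mean levels spanned 54.5-fold, from 2.08 FPKM for TAL1 to 113 FPKM for LYL1, where the median of the 18726 genes tested was 2.22 FPKM. LYL1 was followed by LDB1 (62.8 FPKM), HHEX (54.1 FPKM), TCF3 (52.7 FPKM), LMO2 (36.7 FPKM), FLI1 (24.2 FPKM), ERG (17.7 FPKM), GATA2 (11.9 FPKM in control and 12.1 FPKM in I13 libraries) and TCF12 (10.8 FPKM), as means over the 6 libraries. The ranges of neighbours in this order overlapped for LDB1 and HHEX, for HHEX and TCF3, and for GATA2 and TCF12. Within a library, LDB1 was above HHEX in 6 of 6 libraries. HHEX was above TCF3, and GATA2 above TCF12, in 5 of 6, and these neighbours do not differ beyond their spread. The ranges of all other neighbours were apart. Of the genes tested, 98.6% had a mean at or below that of LYL1, and 49.1% at or below that of TAL1. The fragments behind a value ranged from 163 for TAL1 to 6223 for LYL1.

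**Figure D1:**
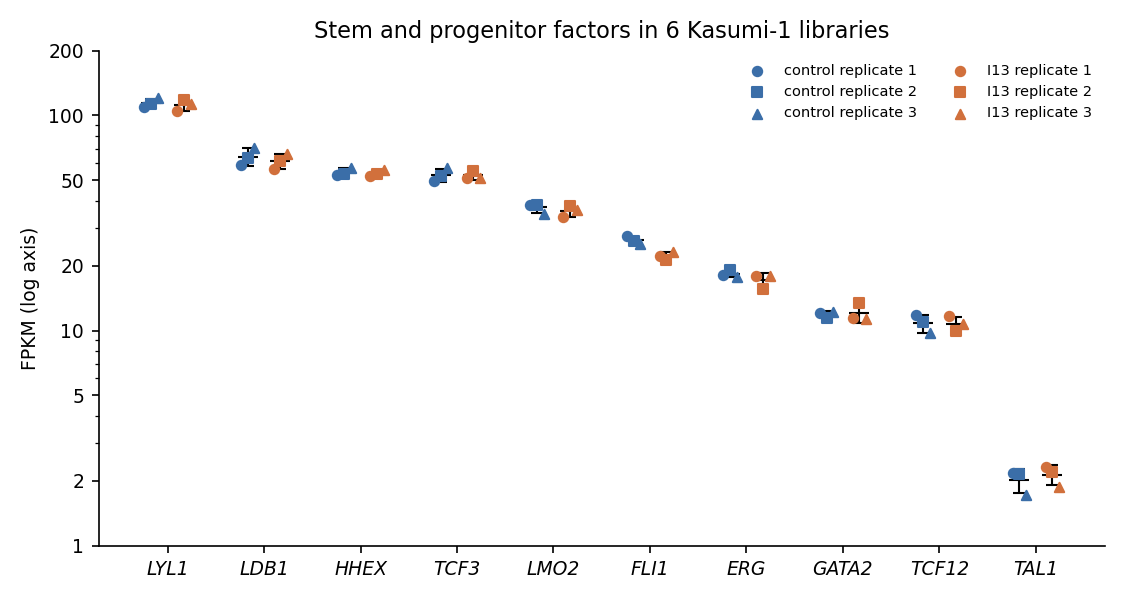
FPKM of the 10 factors on a log axis in the 3 control (blue) and 3 I13 (orange) libraries, with the group mean and SD in black and a marker shape for each replicate number. LYL1 is highest and TAL1 lowest in all 6 libraries, and FLI1 is the factor whose 3 I13 points lie below its 3 control points.

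The question was whether I13 changed the expression of these factors. All 3 I13 libraries had less FLI1 than any control library, by a small amount, and the other 9 factors did not differ beyond the spread between replicates. An unadjusted p under 0.05 was found for 1 of the 10 factors, against 5.14% of the 18726 genes tested (2.59% for lower genes alone), by limma on log2(FPKM + 0.1). In this fit no member passed the adjusted p of 0.05 with an absolute log2 fold change of 0.58, and neither did any gene tested (0 genes, 0%). For comparison, 963 genes had an unadjusted p under 0.05, and voom, limma's method for fragments, called 6 of 12966 genes at both thresholds, none of them a member. The groups did not overlap for 1 of the 10 factors, a share close to the 9.52% of genes tested (4.64% with I13 below control). A count of 1 in 10 does not set these factors apart from other genes. The median log2 fold change was -0.023 over the 10 factors and 0.0058 over all genes tested, and 8 factors were below 0 and 2 above, where 48.2% of all genes tested were below 0. Of the 8 factors below 0, 5 came out above 0 in at least 1 alternative (LDB1, LYL1, TCF3, TCF12 and HHEX), as TAL1 and GATA2 came out below it.

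**Figure D2:**
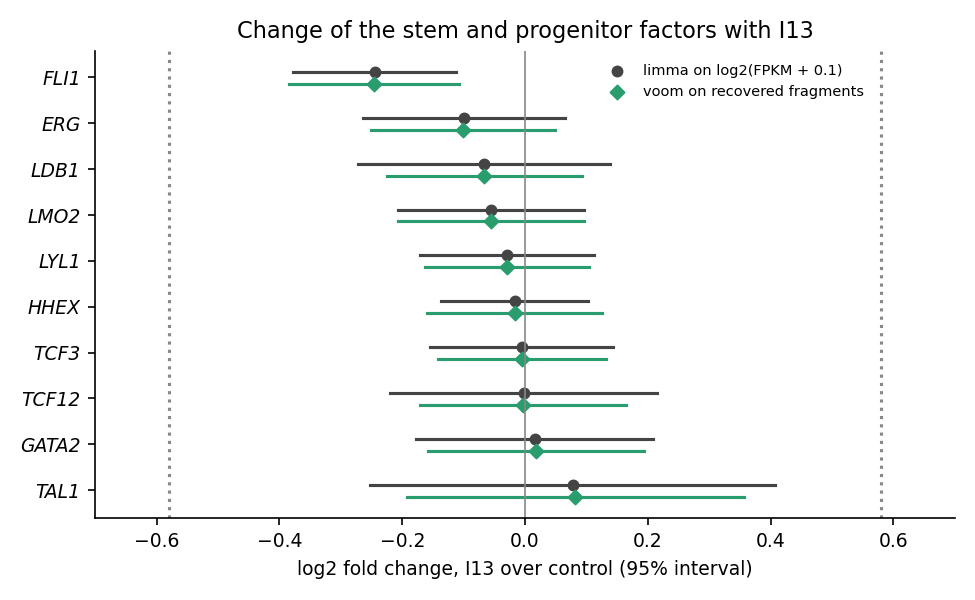
Log2 fold change of each factor, I13 over control, with its 95% interval, by limma on log2(FPKM + 0.1) (circles) and by voom on recovered fragments (diamonds). Dotted lines mark an absolute log2 fold change of 0.58. The interval of FLI1 lies below 0 by both methods, those of the other 9 factors cross 0, and all 10 lie between the dotted lines.

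The ETS members came first by the size of the change. FLI1 (ENSG00000151702, chromosome 11 from 128686535 to 128813267, plus strand) measured 27.4, 26.2 and 25.2 FPKM in control replicates 1, 2 and 3 and 22.1, 21.2 and 23.1 FPKM in I13 replicates 1, 2 and 3. All 3 I13 values lay below the lowest control value. The control mean was 26.2 ± 1.11 FPKM and the I13 mean 22.1 ± 0.975 FPKM (SD, n = 3 each), a ratio of 0.844. The log2 fold change was -0.24 (standard error 0.056, 95% interval -0.38 to -0.11), with an unadjusted p of 0.00331 and a Benjamini-Hochberg adjusted p of 0.669 from limma. By p, FLI1 was number 91 of the genes tested. By voom the log2 fold change was -0.25 (unadjusted p = 0.00114, adjusted p = 0.313). Between the libraries that stood apart, control replicate 3 and I13 replicate 2, the difference (-0.25) was as large as within the other 4 libraries (-0.24). With a term for this pair the unadjusted p was 6.79e-04 and the adjusted p 0.438. In these bulk samples, fewer cells with the transcript and less of it per cell cannot be told apart.

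SENCR, a noncoding gene on the strand opposite FLI1, shares 162 exon bases with it, 1.98% of the FLI1 exon length. SENCR measured 1.70, 1.08 and 1.77 FPKM in the control libraries and 1.16, 1.06 and 1.21 FPKM in the I13 libraries (limma log2 fold change -0.35, unadjusted p = 0.133). It had between 23 and 38 fragments per library, against between 2877 and 3855 for FLI1. The libraries were made with a stranded kit, and the strand setting of the counting is not given in the sources used here.

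Markers of other cells were summed beside this result. The summed level of the monocyte markers, 3 of 4 in the table used, was from 6.13 to 6.97 FPKM in control and from 4.27 to 5.21 FPKM in I13 libraries, nearly all of it CSF1R, with FCGR3A at 0. That of 5 T cell markers was from 0.333 to 0.438 FPKM in control and from 0.179 to 0.207 FPKM in I13 libraries, with CD3G and LCK at 0. That of the B cell markers, 3 of 4 in the table used, was from 2.00 to 2.78 and from 2.74 to 3.77 FPKM. The 4 endothelial markers, a cell type that also uses FLI1 and ERG, summed to at most 0.133 FPKM in any library. The megakaryocyte markers, 4 of 5 in the table used, summed to between 1.26 and 2.03 FPKM in control libraries. In I13 libraries they summed to between 1.41 and 1.92 FPKM, with GP1BA the only one at a mean of at least 1 FPKM. The part of the monocyte, T cell, B cell and megakaryocyte markers in the FLI1 result was not tested.

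ERG (ENSG00000157554, chromosome 21 from 38380027 to 38661780, minus strand) measured 18.1, 19.0 and 17.8 FPKM in the control libraries and 17.9, 15.6 and 17.9 FPKM in the I13 libraries. I13 replicate 2 was the low library, and the other 2 I13 values lay just above the lowest control value. The log2 fold change was -0.10 (standard error 0.070, 95% interval -0.26 to 0.064, adjusted p = 0.983 from limma). It was -0.19 within the pair and -0.056 within the other 4 libraries. The ratio of FLI1 to ERG within a library was 1.51, 1.37 and 1.42 in control and 1.24, 1.36 and 1.29 in I13 replicates 1, 2 and 3. FLI1 was the higher of the ETS members in all 6 libraries, and its lead was smaller in every I13 library. The log2 ratio differed by -0.15 (p = 0.1 in a two-sided exact permutation test, a p that cannot be smaller with 3 libraries against 3, and adjusted p = 0.3 over 3 ratios).

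**Figure D3:**
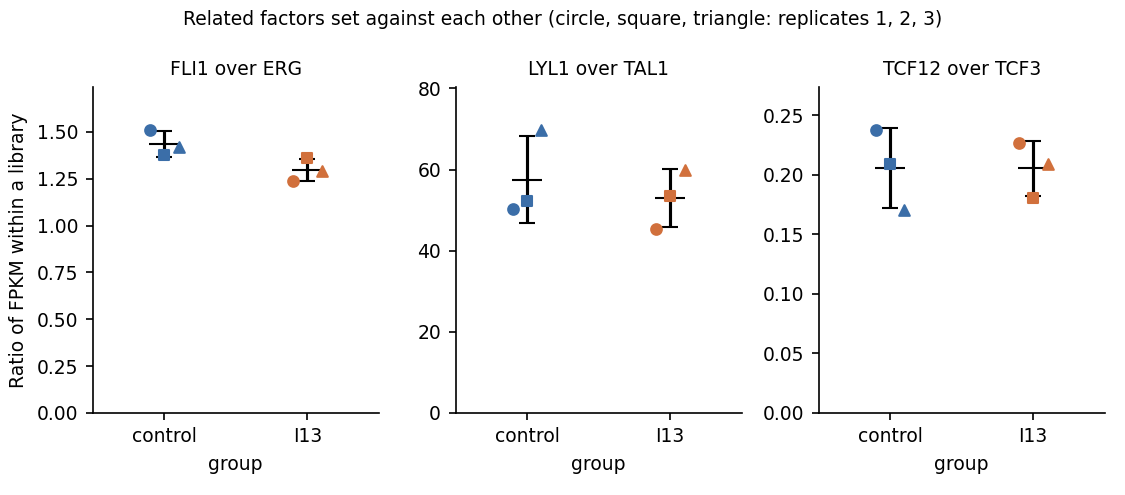
Ratio of FPKM within each library for FLI1 over ERG, LYL1 over TAL1 and TCF12 over TCF3, in control (blue) and I13 (orange) libraries, with the mean and SD in black and a separate vertical axis from 0 in each panel. The I13 ratios of FLI1 over ERG lie between 1.24 and 1.36, below the control ratios, and the groups overlap in the other panels.

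The bHLH factors of the complex stayed far apart in level. LYL1 (ENSG00000104903, chromosome 19 from 13099033 to 13103161) measured 110, 113 and 120 FPKM in control and 105, 118 and 113 FPKM in I13 libraries. The groups overlapped, and the log2 fold change was -0.029 (standard error 0.060, 95% interval -0.17 to 0.11). TAL1 (ENSG00000162367, chromosome 1 from 47216290 to 47232220) measured 2.18, 2.16 and 1.73 FPKM in control and 2.31, 2.21 and 1.88 FPKM in I13 libraries. Replicate 3 was the lowest library of TAL1 in both groups, and the log2 fold change of 0.078 (standard error 0.14) had the widest interval of the 10 factors, from -0.25 to 0.41. TAL1 had between 163 and 214 fragments per library, the fewest of the 10. The ratio of LYL1 to TAL1, whose promoters are printed above, ran from 50.3 to 69.8 in control and from 45.5 to 59.9 in I13 libraries (exact permutation test, two-sided, p = 0.7; adjusted p = 0.9). AL135960.1, a gene antisense to TAL1, shares 845 exon bases with it and was at 0 in every library.

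The E proteins, the DNA-binding partners of LYL1 and TAL1, did not separate the groups. TCF3 (ENSG00000071564, chromosome 19 from 1609290 to 1652605) measured 49.6, 52.2 and 56.8 FPKM in control and 51.5, 55.4 and 51.0 FPKM in I13 libraries, a log2 fold change of -0.0056 (standard error 0.063, 95% interval -0.16 to 0.14). TCF12 (ENSG00000140262, chromosome 15 from 56918623 to 57299281) measured 11.8, 10.9 and 9.69 FPKM in control and 11.6, 9.99 and 10.7 FPKM in I13 libraries, a log2 fold change of -0.0020 (standard error 0.092, 95% interval -0.22 to 0.22). The direction of both changed with the scaling: under median scaling both were just above 0. TCF3 had the higher level in every library, and the ratio of TCF12 to TCF3 was between 0.171 and 0.238 in the 6 libraries. It did not differ between the groups (difference of the log2 ratio 0.0036, exact permutation test, two-sided, p = 0.9, adjusted p = 0.9).

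The bridging proteins of the complex were among the higher members. LMO2 (ENSG00000135363, chromosome 11 from 33858576 to 33892289), which carries no DNA-binding domain of its own, measured 38.5, 38.5 and 35.0 FPKM in control and 33.7, 37.9 and 36.2 FPKM in I13 libraries. Its log2 fold change was -0.055 (standard error 0.064, 95% interval -0.21 to 0.096). The sign differed between the library sets, with 0.12 within the pair and -0.14 within the other 4 libraries. LDB1 (ENSG00000198728, chromosome 10 from 102107560 to 102120453), which dimerizes and so can join distant sites, measured 58.7, 63.2 and 70.9 FPKM in control and 56.3, 61.2 and 66.4 FPKM in I13 libraries. Its replicates spread by more than the groups differed, by -0.066 on the log2 scale (standard error 0.087, 95% interval -0.27 to 0.14).

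GATA2 (ENSG00000179348, chromosome 3 from 128479427 to 128493185) measured 12.1, 11.4 and 12.2 FPKM in control and 11.4, 13.5 and 11.3 FPKM in I13 libraries. I13 replicate 2 was the high library, and the log2 fold change was 0.016 (standard error 0.082, 95% interval -0.18 to 0.21). The antisense gene GATA2-AS1, named after its values were seen, overlaps the GATA2 locus on the other strand and shares no exon base with it. It measured 1.09, 1.05 and 0.978 FPKM in control and 1.32, 1.60 and 1.46 FPKM in I13 libraries, with no overlap between the groups. On the log2 scale it differed by 0.45 (standard error 0.14; limma, unadjusted p = 0.0148 and adjusted p = 0.875), from between 37 and 61 fragments per library. HHEX (ENSG00000152804, chromosome 10 from 92689951 to 92695646) measured 52.8, 53.2 and 57.2 FPKM in control and 52.3, 53.4 and 55.6 FPKM in I13 libraries. It was the steadiest of the 10 factors, with a coefficient of variation of 3.54% over the 6 libraries against up to 10.8% for TAL1, and its log2 fold change was -0.017 (standard error 0.051, 95% interval -0.14 to 0.10).

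These intervals give the changes that the spread between these libraries leaves possible. That spread may be technical, and the intervals would then not cover differences between separate cultures. For the 9 factors other than FLI1, the 95% limits of the fold lay between 0.829 and 1.33 by limma. For all 10 factors the interval was inside a log2 fold change of 0.58 in either direction, or 1.49-fold, the fold threshold in the study's methods. The unadjusted p of the 9 factors was at least 0.194. A change that lies within a factor's own interval was not resolved for that factor by these libraries.

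Several factors differed more between the 2 libraries that stood apart and the other 4 than between I13 and control. For 5 of the 10 factors control replicate 3 and I13 replicate 2 both lay on one side of the other 4, against 27.3% of genes tested. LYL1 (pair over the other 4, ratio of means 1.08), TCF3 (1.10) and GATA2 (1.11) were higher in the pair, and TCF12 (0.874) and ERG (0.915) were lower. For ERG this came mainly from I13 replicate 2 (15.6 FPKM). Control replicate 3, at 17.8 FPKM, was only just below the lowest of the other 4 libraries (17.9 FPKM). FLI1 was lower in I13 both within this pair and among the other 4 libraries. The log2 fold change within the pair and within the other 4 was -0.21 and 0.0061 for LDB1. It was 0.34 and -0.052 for TAL1, 0.14 and -0.045 for GATA2, and -0.099 and 0.025 for HHEX. For TCF3 it was -0.035 and 0.0092, and for TCF12 0.043 and -0.024, so the sign of each of these differed. LYL1 had -0.026 and -0.031. The split was drawn from these libraries, so the values are a description with no test.

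**Figure D4:**
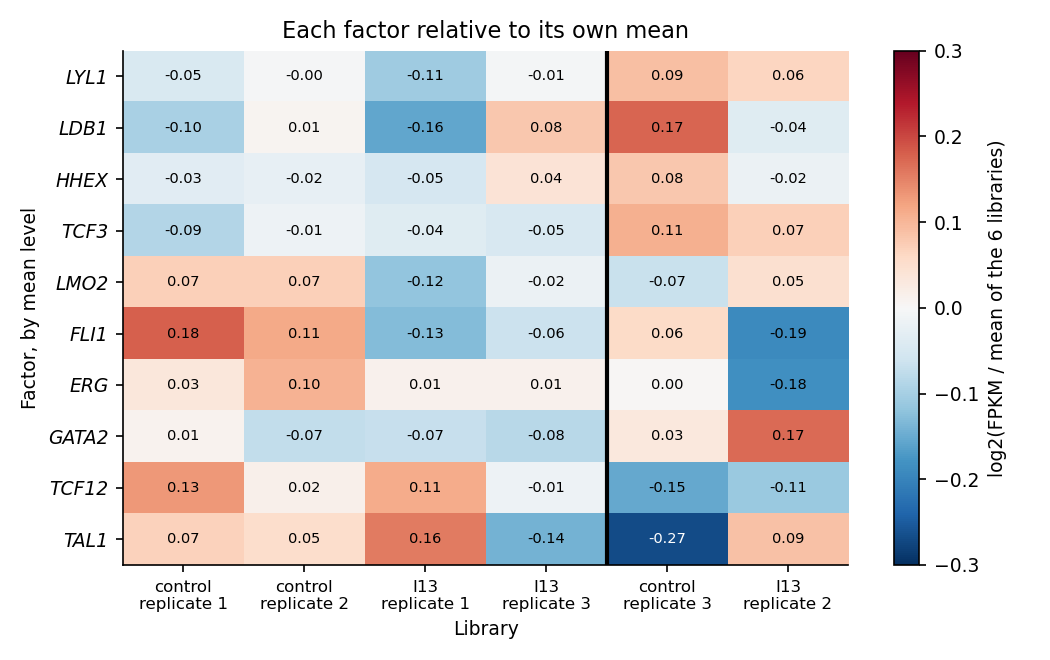
Level of each factor in each library relative to its own mean over the 6 libraries, as log2 ratios printed in each cell, with red for above and blue for below the mean. Control replicate 3 and I13 replicate 2 stand to the right of the black line, where TCF12 is blue and TCF3 and LYL1 are red in both. FLI1 is red in the 3 control libraries and blue in the 3 I13 libraries.

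Partner genes were taken from 6 lists of 45 genes in all, of which 44 were in the table used and 33 were tested. An unadjusted p under 0.05 was found for 1 of the 33 (3.03%), lower in I13, against 5.14% of all genes tested, and 0 passed the adjusted p by limma. The gene was ID1, an inhibitor that binds E proteins and keeps them from DNA. ID1 measured 30.4, 33.9 and 27.8 FPKM in control and 22.7, 28.4 and 23.0 FPKM in I13 libraries, so that I13 replicate 2 overlapped the control values. On the log2 scale it differed by -0.32 (standard error 0.11; limma, unadjusted p = 0.0222 and adjusted p = 0.901). By voom, 2 of the 30 partner genes it tested had an unadjusted p under 0.05, against 5.33% of its 12966 genes. They were ID1 and ID2, a relative of ID1 that was higher in I13 libraries (5.67 ± 0.693 against 4.58 ± 0.723 FPKM in control, SD, n = 3). The log2 fold change of ID2 by voom was 0.31 (unadjusted p = 0.0360, adjusted p = 0.865), and by limma its unadjusted p was 0.0625. ID2 was named after its values were seen. ID3, the highest of the rest of this list, went from 7.85 ± 0.533 to 8.82 ± 1.71 FPKM (SD, n = 3), within its spread. The third E protein, TCF4, and ID4 had 0 fragments in every library, which allows up to 3 fragments per library. The list of E proteins and inhibitors had 3 genes tested, with a median log2 fold change of 0.15.

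The LIM and bHLH partners had 7 genes tested and 0 with an unadjusted p under 0.05, with a median log2 fold change of -0.021. KDM1A, a histone demethylase that acts with TAL1, was the highest of them at 50.5 ± 1.29 FPKM in control and 51.6 ± 0.467 FPKM in I13 libraries (SD, n = 3). Its groups did not overlap, as for 9.52% of all genes tested, but the highest control and the lowest I13 value were both 51.3 FPKM. LDB2, the relative of LDB1, had 0 fragments in every library, LMO1 reached at most 0.111 FPKM and TAL2, the relative of TAL1, at most 0.355 FPKM in any library. LMO4 was at 7.39 ± 0.146 FPKM (SD, n = 3) in control libraries, below LMO2.

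AML1-ETO and its binding partners had 5 genes tested and 0 with an unadjusted p under 0.05, with a median log2 fold change of -0.0069. RUNX1 went from 33.8 ± 1.55 to 34.2 ± 1.71 FPKM (SD, n = 3). Its row and that of RUNX1T1 hold fragments of the normal and of the fused gene, which a table per gene does not separate. The other ETS factors of blood had 7 genes tested and 0 with an unadjusted p under 0.05, with a median log2 fold change of 0.032. SPI1 (PU.1), a factor of the myeloid lineage, was the highest of them and went from 114 ± 7.78 to 105 ± 6.02 FPKM (SD, n = 3, log2 fold change -0.11, standard error 0.067, unadjusted p = 0.145 from limma). With a term for the pair of libraries that stood apart, SPI1 had an unadjusted p of 0.0257, and 2 of the 33 partner genes (SPI1 and ID1) were under 0.05, against 7.62% of all genes tested.

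The other stem and progenitor factors had 6 genes tested and 0 with an unadjusted p under 0.05, with a median log2 fold change of -0.093. GFI1, a repressor of myeloid cells, went from 159 ± 4.49 to 150 ± 3.31 FPKM (SD, n = 3, log2 fold change -0.084, standard error 0.044, unadjusted p = 0.0956 from limma). The groups of GFI1 did not overlap, as for 9.52% of all genes tested, with I13 values up to 152 FPKM and control values from 154 FPKM. GATA1, the erythroid relative of GATA2, had a mean of 0.0134 FPKM in control and 0.0266 FPKM in I13 libraries and was not tested. Genes bound by these factors in progenitor or erythroid cells had 5 genes tested and 0 with an unadjusted p under 0.05, with a median log2 fold change of 0.12. KIT, the receptor of stem cell factor, went from 225 ± 12.2 to 216 ± 17.1 FPKM (SD, n = 3). EPOR, the erythropoietin receptor, was at a mean of 3.85 FPKM over the 6 libraries (log2 fold change 0.12), and KLF1, an erythroid factor, at 1.33 FPKM (log2 fold change 0.12). The erythroid genes EPB42 and ALAS2 were under the minimum mean of 0.1 FPKM.

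**Figure D5:**
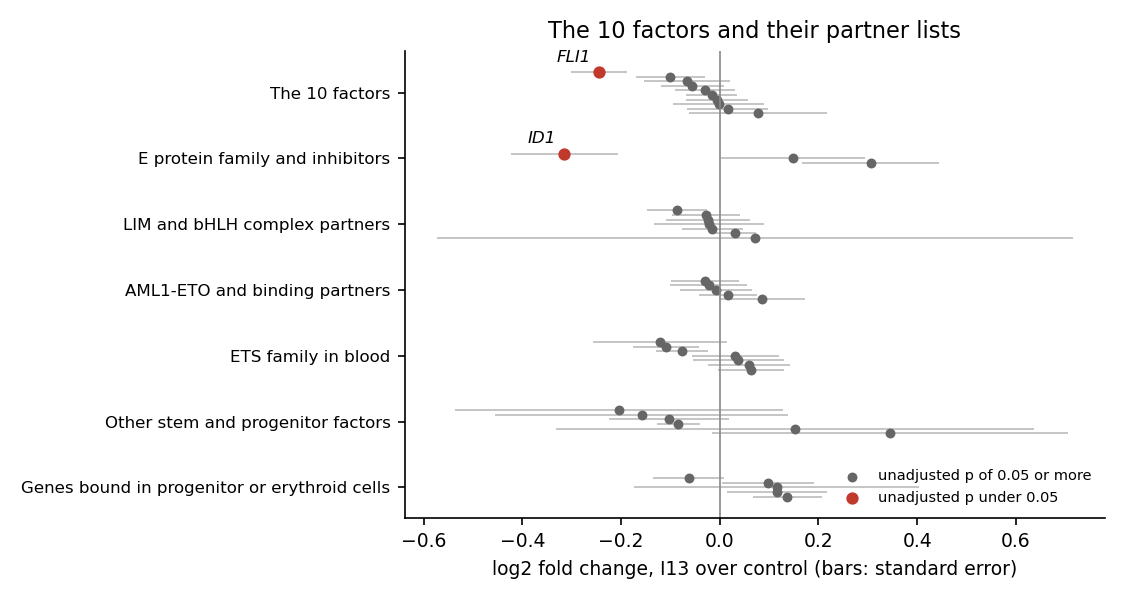
Log2 fold change, I13 over control, of each tested gene of the 10 factors and of the 6 partner lists, with the standard error from limma as a bar. FLI1 and ID1, in red, are the genes with an unadjusted p under 0.05, both lower in I13, and the other points scatter around 0.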

How the data were processed

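Libraries of total RNA were prepared by the study with a stranded mRNA kit. The authors deposited FPKM values per gene and library, which were used without further scaling. The submitters' processing notes name Trimmomatic, HISAT2, HTSeq, Cufflinks and the build hg38. The sources used here give no version, annotation or strand setting. GENCODE release 29 (GRCh38) named 32244 of 32364 identifiers. With its exon lengths, 25773 of 27002 genes above 0 (95.4%) gave whole fragments in all 6 libraries within 0.01, which gives the depth of 15281052 to 17221345 fragments. Replicates differed by more than counting noise (mean chi-square per gene from 3.03 to 8.06, where noise alone gives about 1). The number of fragments behind a value is therefore not the only limit on its precision, and it is stated for some genes only.

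Groups came from the sample titles. I13 was compared with control on log2(FPKM + 0.1) by limma 3.58.1 (R 4.3.3), two-sided and with a variance trend, over the 18726 genes whose mean FPKM reached 0.1, and adjusted by the Benjamini-Hochberg method. A fold change on this scale understates that of low genes. Voom was run on 12966 genes whose recovered fragments averaged 10 or more. Ratios were compared by an exact permutation test. The fits were tested on simulated data. Named genes are all 10 factors and, of each partner list, every gene with an unadjusted p under 0.05 and the one with the highest mean among the rest; others were chosen after their values were seen. The members and lists were chosen with earlier results of these data known. Alternatives were other pseudocounts, filters, scalings and variance models, voom, a replicate block, a term for a library pair, and each library left out. Some marker genes are not reported here.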

Additional observations from a re-analysis of the deposited data

How the results depend on the processing

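FLI1 stayed lower with an unadjusted p under 0.05 in all 17 alternatives, all of them fits to these same libraries. Its log2 fold change was between -0.28 and -0.21, its unadjusted p between 6.79e-04 and 0.0200 and its adjusted p between 0.313 and 1.00, and 0 members passed the adjusted p and fold threshold in any. The number of members with an unadjusted p under 0.05 was 1 throughout. The genes tested with an unadjusted p under 0.05 numbered 582 with a minimum mean FPKM of 1, against 963. The groups did not overlap for 2 members under median scaling, FLI1 and ERG, and for 1 to 3 with a library left out. These were also ERG and LMO2 without control replicate 3 and TAL1 without I13 replicate 3. Of 170 fits of members, 152 kept the direction and the side of the threshold and 18 turned around 0. Under median scaling the log2 fold change was 0.00058 for TCF3 and 0.0042 for TCF12, and under quantile normalization 0.00073 for TCF12. With each library left out in turn it ran from -0.13 to -0.035 for ERG (the latter without I13 replicate 2), from -0.10 (without control replicate 3) to -0.010 (without I13 replicate 1) for LMO2, from -0.13 to 0.0066 for LDB1, from -0.027 to 0.16 for TAL1, from -0.069 to 0.015 for LYL1, from -0.050 to 0.047 for TCF3, from -0.077 to 0.063 for TCF12, from -0.066 to 0.060 for GATA2 and from -0.041 to 0.020 for HHEX. The difference in log2 ratio then ran from -0.20 to 0.037 for LYL1 over TAL1 and from -0.12 to 0.11 for TCF12 over TCF3. The cause was not tested. With the replicate number as a block, FLI1 had a log2 fold change of -0.24 (unadjusted p = 0.0146) and 862 genes had an unadjusted p under 0.05. The numbers do not pair the samples: deviations from the group means correlated at 0.32, -0.38 and -0.30 for numbers 1, 2 and 3, and 1 of 3 control libraries correlated best with its own number.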

Other observations

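Of 16 cell type markers tested beside the factors, 4 had an unadjusted p under 0.05 by limma, against 5.14% of all genes tested, and none passed the adjusted p. The groups did not overlap for these 4 and for CD22, against 9.52% of all genes tested. They were named after their values were seen. CSF1R, the receptor of macrophage colony-stimulating factor, was 6.87, 6.13 and 6.97 FPKM in control and 4.27, 5.07 and 5.17 FPKM in I13 libraries (log2 fold change -0.46, standard error 0.099, adjusted p = 0.583; voom adjusted p = 0.0788). CD33, a myeloid surface protein, was 11.9, 11.8 and 10.8 FPKM in control and 13.7, 13.1 and 12.7 FPKM in I13 libraries (log2 fold change 0.20, standard error 0.063, adjusted p = 0.890). PAX5, a B cell factor that t(8;21) leukemia cells are known to express, was 0.548, 0.406 and 0.731 FPKM in control and 1.05, 0.886 and 0.912 FPKM in I13 libraries (log2 fold change 0.69, standard error 0.23, adjusted p = 0.890; voom adjusted p = 0.114). CD3D was 0.313, 0.376 and 0.325 FPKM in control and 0.135, 0.129 and 0.141 FPKM in I13 libraries (log2 fold change -0.90, standard error 0.30, adjusted p = 0.890). Its mean of 0.236 FPKM was the lowest of these 4, where the minimum for testing was 0.1 FPKM. Voom had no value for CD3D, and the number of fragments behind its FPKM values is not given here.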
